A study of Oikopleura dioica with 2 samples.

Results

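The RNA described here is the set of assembled components that stood at 100 to 1000 FPKM (fragments per kilobase of transcript, relative to all mapped fragments of a library) in both unfertilized eggs and 8 hpf (hours post-fertilization) larvae of Oikopleura dioica, with less than a 2-fold difference between the stages. Oikopleura dioica is a planktonic tunicate that keeps its tail and notochord for life. The members were chosen from the deposited values themselves: at least 100 and under 1000 FPKM in each stage, and an absolute difference below 1 in log2(FPKM + 1), larvae minus eggs. This rule found 99 of 57962 components, where a component is a group of 1 or more transcripts that the assembly joined into what the table calls a gene. Because the rule used both stage values, the levels and differences of the members are a description and carry no test.

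Both groups came from animals bred over generations from a single pair and reared at 20 °C, where they spawn at 5 days, and the labels name no mutation or treatment for either group. The eggs came from 46 female cohorts, and the larvae, which were raised from eggs fertilized in a dish, came from 63 adult pairs. Each group is thus a pool of whole eggs or whole larvae. Polyadenylated RNA was read from strand-specific paired-end libraries. There is 1 labelled sample per stage and the design text mentions 2 biological replicates, but the table holds 1 value per stage, without an error, so that no difference below has a replicate check. The depth of the libraries is unknown.

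An egg carries RNA that the mother deposited during oogenesis, and this RNA directs the first cleavages. During the maternal-to-zygotic transition the embryo clears part of the maternal RNA and starts its own transcription, so that a transcript found in a larva can be a leftover of the mother's RNA, a product of the larva's own genes, or both. Genes that every cell needs, such as those for translation, energy supply and the cytoskeleton, are commonly found both in maternal stores and in growing embryos. In these libraries maternal and newly made copies of a transcript cannot be told apart. FPKM is also a share of a library and not an amount per animal, and in whole larvae fewer cells of a type and less RNA per cell cannot be told apart.

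The identifiers are numbers given by the assembly, and none (0) matched the 17178 genes of the RefSeq table for assembly OKI2018_I68_1.0. The files hold no gene names, sequences or coordinates for these components. No function is therefore given to any member, and the largest and the smallest differences stand for the range.

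As deposited, few components at this level in 1 stage met the whole rule. Of the 1051 components at 100 to 1000 FPKM in eggs, 9.42% were members. Of the 931 at that level in larvae, 10.6% were. Members must also lie in the range in the other stage, so these shares do not measure steadiness alone. Within 2-fold at any level of the other stage were 161 of the 1051 and 121 of the 931. Classed by the geometric mean of both stages, 29.0% of the 455 components at this level were within 2-fold. At 10 to 100 FPKM the share was 29.7% of 6090, so a low share is not particular to this level. Only 165 components lay in the range in both stages. The members were 99 of these 165, or 60.0%, while among all 8919 components at 1 FPKM or more in both stages 40.2% were within 2-fold. Since the rule sets the 60.0% in part, nothing is read from the gap between it and the 40.2%. The 66 remaining components in the range were mostly higher in eggs, 59 against 7, with a median difference of -1.62.

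**Figure D1:**
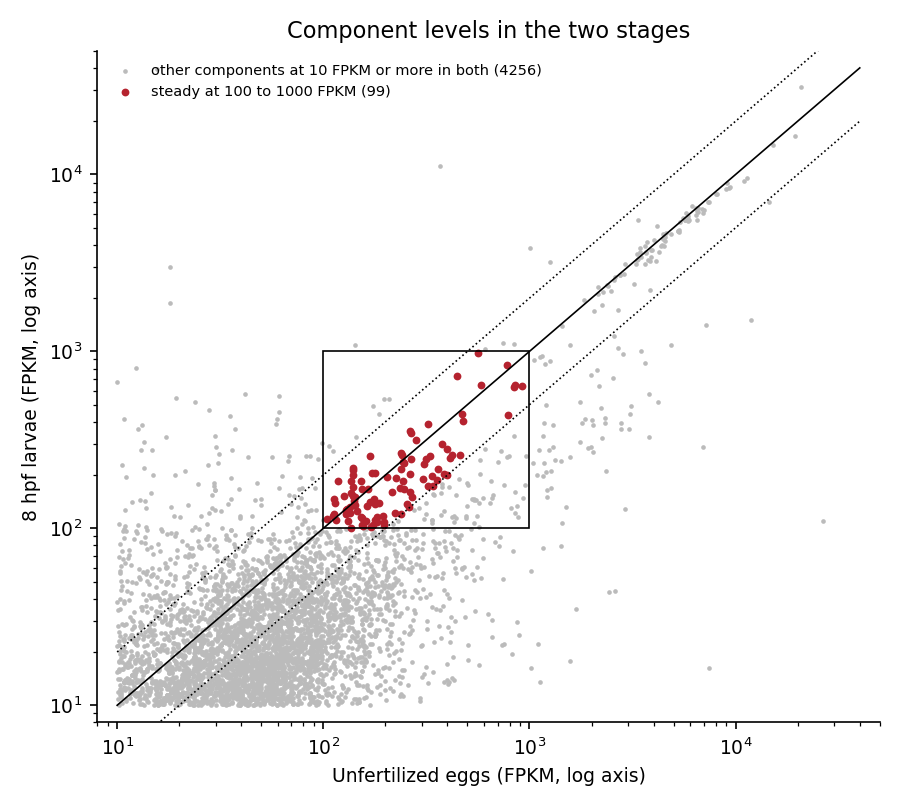
Level of each component in eggs (horizontal, FPKM, log axis) against larvae (vertical, FPKM, log axis), for components at 10 FPKM or more in both stages. The 99 members (red) lie inside the box of 100 to 1000 FPKM and between the dotted lines of 2-fold difference, below the separate streak of components above 1000 FPKM that follows the solid line of equality.

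Both limits of the rule passed through a continuous range of values. Just inside the fold limit lay a component at 399.8 FPKM in eggs against 199.9 FPKM in larvae (-0.997). Just outside it lay one at 217.8 FPKM in eggs against 105.6 FPKM in larvae (-1.04). At the lower level limit, the last member inside was at 135.9 FPKM in eggs against 100.2 FPKM in larvae, and the first outside was at 161.6 FPKM in eggs against 99.7 FPKM in larvae. Of the components in the range in 1 stage, some were within 2-fold but outside the level limits in the other stage. In all, 161 components of 100 to 1000 FPKM in eggs were within 2-fold, and 59 of them were left out because they were under 100 FPKM in larvae. Another 3 were left out at 1000 FPKM or more in larvae. From the side of larvae, 121 components in the range were within 2-fold, of which 17 were under 100 FPKM in eggs and 5 were at 1000 FPKM or more there.

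Most members sat in the lower part of the range. In eggs their levels ran from 104.5 to 915 FPKM with a median of 197 FPKM and quartiles of 144 and 310 FPKM. In larvae they ran from 100.2 to 978 FPKM with a median of 171 FPKM and quartiles of 128 and 242 FPKM. At 100 to 200 FPKM lay 50 members by their egg value and 62 by their larval value, and 44 by both. At 500 FPKM or more lay 7 members in each stage, of which 6 were the same components. The 99 members together held 25792 FPKM in eggs, which was 2.23% of that column, and 22053 FPKM in larvae, which was 1.74%.

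Members were more often higher in eggs than in larvae. As deposited, 67 were higher in eggs and 32 (32.3%) in larvae, beside 31.8% higher in larvae among all 8919 components at 1 FPKM or more in both stages and 38.3% among the 3589 of these within 2-fold. The members' share was thus close to both backgrounds. It was 23.6% over the 165 components at 100 to 1000 FPKM in both stages. Their median difference was -0.26 (quartiles -0.66 and 0.11), against -0.70 over the 8919 components, and 0 over all 57962, most of which are listed at or near 0 in the egg column. The direction depended on how the stages were put on 1 scale, as it changed to a median of 0.58, with 87 of the 99 members higher in larvae, when the larval column was raised 1.80-fold by a trimmed mean of log ratios over components at 1 FPKM or more in both stages. When all components above 0 in both stages entered that mean, the larval values were instead multiplied by 0.738 and the median became -0.69.

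The members differed in how equal their 2 values were. As deposited, the stages were within 10% of each other in 22 members. In 33 members they were at least 1.5-fold apart, 27 of these being higher in eggs and 6 higher in larvae. The rule used these differences, and the same counts over other components were not computed. The lean toward eggs holds for the deposited scale. After the trimmed mean scaling over components at 1 FPKM or more, 87 of the 99 members were higher in larvae. The level limits themselves shorten the range of differences near 100 and 1000 FPKM. In the 60 members whose geometric mean over the stages lay between 150 and 700 FPKM, where any difference below 2-fold keeps both values inside the limits, 19 (31.7%) were higher in larvae and the median difference was -0.34. The 34 members with a lower mean had a median difference of -0.12, with 11 higher in larvae.

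**Figure D2:**
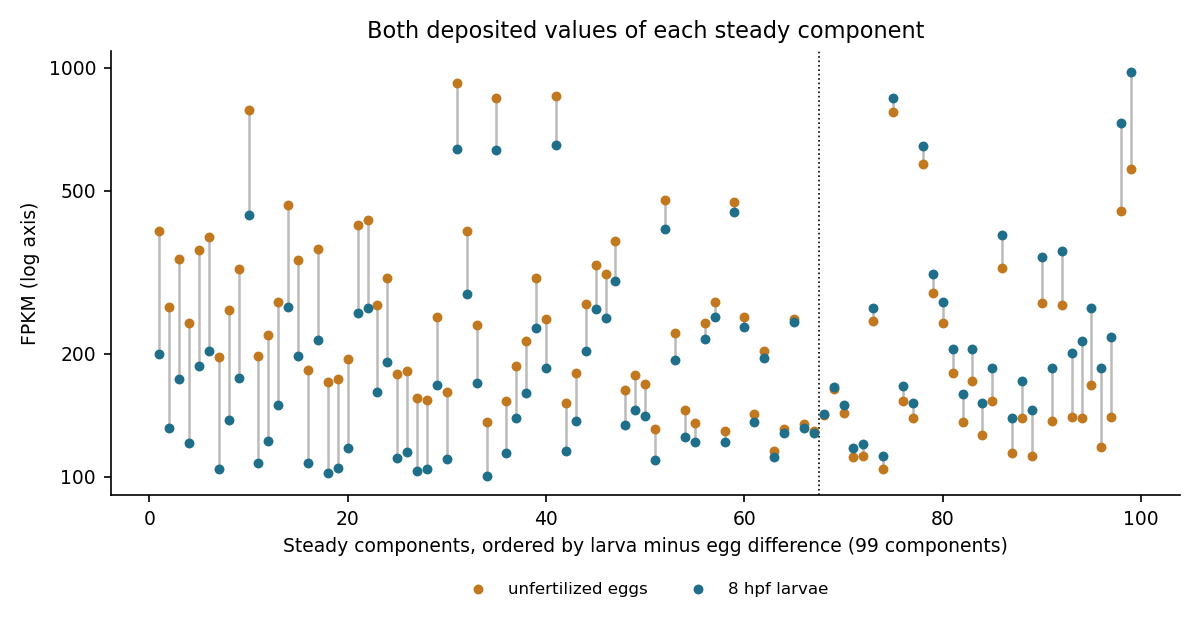
Deposited FPKM (log axis) of the 99 members in eggs (orange) and larvae (blue), ordered from the largest difference toward eggs on the left to the largest toward larvae on the right. The dotted line parts the 67 members higher in eggs from the 32 higher in larvae, and high and low members are found along the whole order.

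At the ends and the middle of this order, single members show the size of the differences. The largest difference toward larvae was that of comp22201_c0, which was at 565.5 FPKM in eggs against 978 FPKM in larvae (0.79). It was also the most abundant member in larvae, close to the upper limit. The next was comp25293_c2, at 446 FPKM in eggs against 731 FPKM in larvae (0.71). Both moved up the order of abundance, from place 236 to place 144 and from place 273 to place 178 of all components. Furthest toward eggs stood comp11012_c0, at 399.8 FPKM in eggs against 199.9 FPKM in larvae (-0.997), and its place went from 301 to 533. It was followed by comp5679_c0, at 260 FPKM in eggs against 132 FPKM in larvae (-0.97), whose place went from 436 to 812. The smallest differences were those of comp14901_c0, at 141.5 FPKM in eggs against 142.5 FPKM in larvae (0.01), and of comp19243_c0, at 164 FPKM in eggs against 166 FPKM in larvae (0.02). Each of these 6 was a component of 1 transcript, except comp19243_c0 with 4.

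The place of a component in its own library does not depend on the scaling between libraries. The members held places 181 to 1179 in eggs, with a median of 578, and places 144 to 1069 in larvae, with a median of 620. By place, 57 members stood nearer to the top in eggs and 42 in larvae, a more even split than that of the FPKM values. Their places were within 10% of each other in 18 members. The 66 components in the range that were at least 2-fold apart had median places of 254 in eggs and 722 in larvae. Both groups were chosen by their deposited FPKM values, which also limits their places in each stage. The same counts of places over other components were not computed, and nothing is read from these places.

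The differences at 100 to 1000 FPKM were spread broadly, and those of the most abundant components narrowly. A shift between the libraries moves all differences by nearly the same amount and leaves the width of their spread. With components classed by the geometric mean of their 2 values, so that neither stage was held to a limit, the interquartile range at 100 to 1000 FPKM spanned 1.96 on the log2 scale (-2.33 to -0.37, 455 components). At 10 to 100 FPKM it spanned 2.30 (-1.98 to 0.32, 6090 components), and at 1000 FPKM or more it spanned 0.35 (-0.38 to -0.02, 119 components). As deposited, the stages were within 2-fold in 132 of the 455 components (29.0%), against 29.7% of the 6090 and 77.3% of the 119. These classes were formed after the values were seen.

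When both stages had to lie in the same class, as the rule for the members asks, the spread was narrower, since a class of 10-fold width limits how far the stages can differ. It spanned 1.39 over the 165 components at 100 to 1000 FPKM in both stages and 1.44 over the 3176 at 10 to 100 FPKM. The class of 1000 FPKM or more, which has no upper limit, spanned 0.17 over 97 components. As deposited, 31 of the 165 components (18.8%) were within 0.25 of equality, against 376 of the 3176 (11.8%) and 77 of the 97 (79.4%). In steps of 0.5 from -3 to 1.5, the 165 components were divided as 5, 13, 22, 19, 32, 35, 25, 7 and 7. Components thus lay on both sides of either 2-fold limit, 19 and 32 beside the limit toward eggs and 7 and 7 beside that toward larvae. These are counts and widths without a test, since components are not replicates of a stage.

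**Figure D3:**
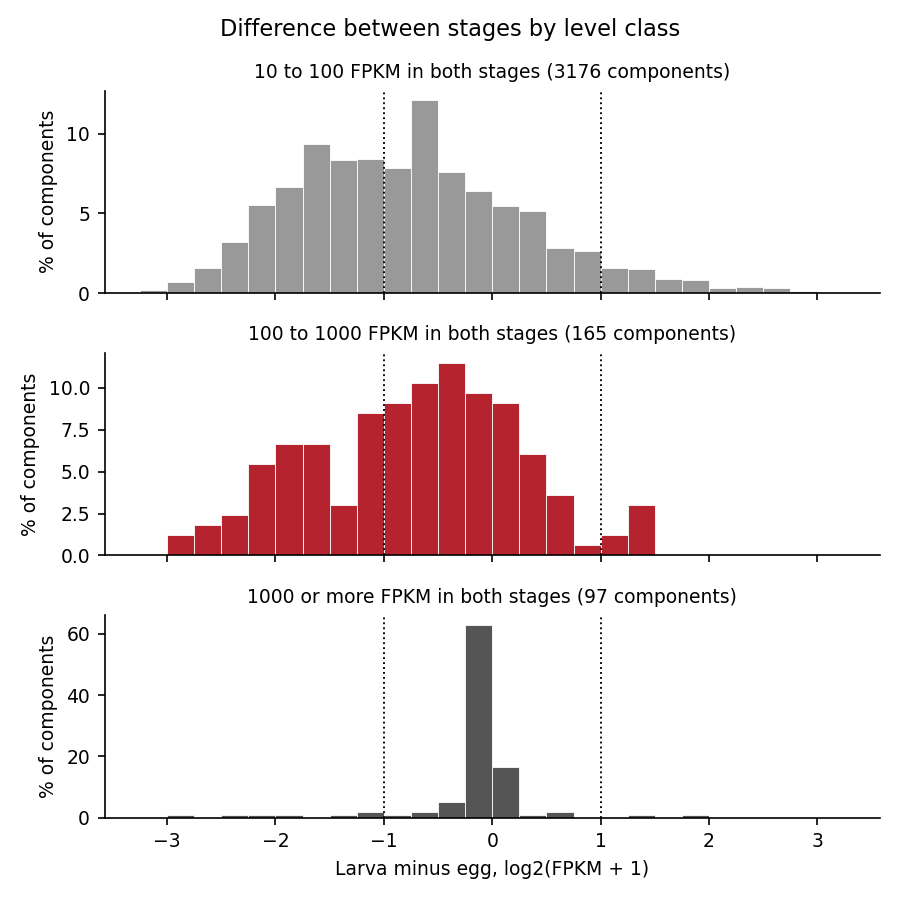
Difference between the stages (larvae minus eggs, log2(FPKM + 1)) for components in the same level class in both stages, as a percentage of each class. The dotted lines mark the 2-fold limit: the middle panel spreads broadly across them, with 99 of its 165 components between the lines, while the bottom panel is gathered near 0.

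Most members had a single assembled transcript. The number of transcripts, which the rule did not use, was 1 in 70 members (70.7%), 2 in 8 members and 3 or more in 21 members (21.2%). Among the 66 components in the range that were at least 2-fold apart, 74.2% had a single transcript and 18.2% had 3 or more. The share with a single transcript was lower, 51.5%, in the 1589 components steady at 10 to 100 FPKM and higher, 90.9%, in the 88 steady at 1000 FPKM or more. It was 74.3% in the 1391 components steady at 1 to 10 FPKM, so the share did not follow the level from class to class. Over all 57962 components it was 83.9%, and over the 8919 at 1 FPKM or more in both stages it was 61.7%, which places the members below the first background and above the second. The share with 3 or more transcripts was 7.13% over all 57962 components and 19.3% over the 8919. Components of 10 or more transcripts were 10 of the 99 members (10.1%), against 302 of the 8919 (3.39%). They were 2 of the 66 (3.03%), 90 of the 1589 (5.66%) and 1 of the 88 (1.14%). Their share over all 57962 was not computed, and nothing is read from a count of 10 members.

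**Figure D4:**
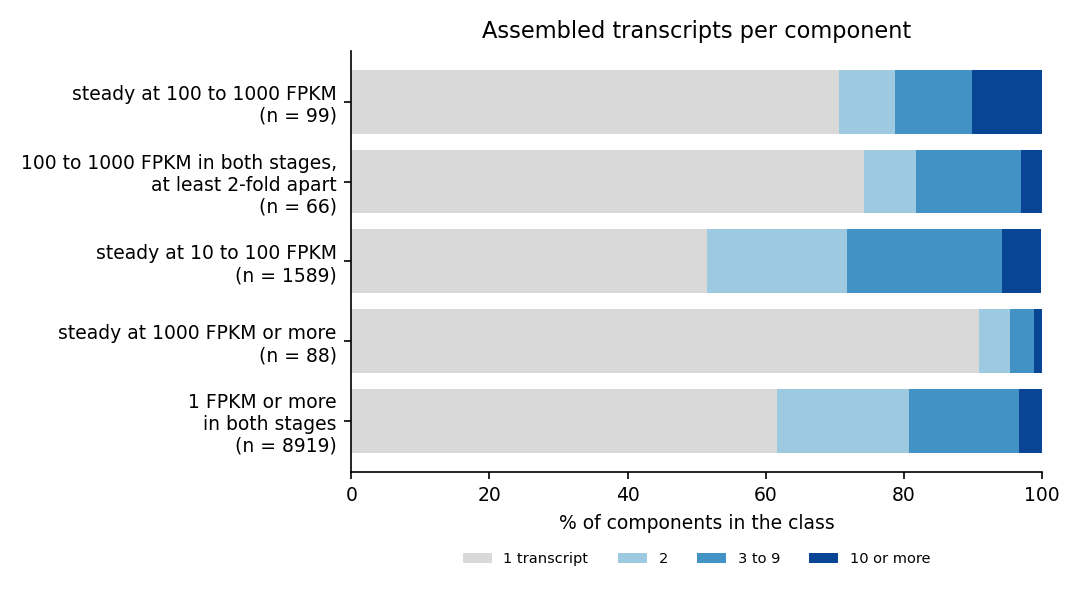
Share of components (horizontal, %) with 1, 2, 3 to 9 and 10 or more assembled transcripts in the members and in 4 other classes, with the number of components in each. Single transcripts (grey) make up 70.7% of the members, beside 51.5% of the steady class at 10 to 100 FPKM and 90.9% of that at 1000 FPKM or more.

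As deposited, members with 3 or more transcripts had lower median levels than those with 1, and their median difference lay further toward larvae. The 70 single-transcript members had median levels of 238 FPKM in eggs against 189 FPKM in larvae and a median difference of -0.34, with 19 of them (27.1%) higher in larvae. The 21 members with 3 or more transcripts had medians of 161 FPKM in eggs against 149.9 FPKM in larvae and a median difference of 0.02, with 11 of them (52.4%) higher in larvae. Over the 29 members with 2 or more transcripts, which include these 21, the median difference was -0.21, with 13 (44.8%) higher in larvae. The rule used these differences, and its level limits shorten them near 100 FPKM. The 34 members with a geometric mean under 150 FPKM had a median difference of -0.12. Level and transcript number are thus not separated here, and nothing is read from the contrast. The same split by transcript number was not computed for other components, so the contrast is not shown to be particular to the members. After the trimmed mean scaling over components at 1 FPKM or more, the medians were 0.50 for 1 transcript, 0.62 for 2 or more and 0.86 for 3 or more. This scaling moves all members by nearly the same amount, so it could hardly change their order and is no check of it. The largest numbers were 36 and 32 transcripts. The member with 36 transcripts was at 153.5 FPKM in eggs against 167 FPKM in larvae (0.12), and the one with 32 was at 139.9 FPKM in eggs against 201 FPKM in larvae (0.52). A component's value sums over its transcripts, so a steady component can hold transcripts that differ between the stages, and the table gives no value per transcript.

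Most related rows of the members were low in level, as most components are, and at least 2-fold apart between the stages. Assembly components can be split into subcomponents that share a number, and 33 members (33.3%) shared their number with at least 1 other row. The share was 18.2% among the 66 components in the range that were at least 2-fold apart, 21.0% in the steady class at 10 to 100 FPKM, 28.4% in that at 1000 FPKM or more, and 20.1% over all 57962 components. These 33 members belonged to 31 numbers, which also held 50 rows that were not members. Of the 50 rows, 11 were listed at 0 in both stages, 15 at 0 in eggs alone and 2 at 0 in larvae alone. Most were far below the members, as 30 were under 10 FPKM in both stages. Over all 57962 components the upper quartile was 0.025 FPKM in eggs and 8.69 FPKM in larvae, so a low level is not particular to these rows. In all, 32 of the 50 differed at least 2-fold and 18 were within 2-fold, while 50.6% of all 57962 components were within 2-fold. Of the 17 that reached 1 FPKM in both stages, 5 (29.4%) were within 2-fold, beside the 40.2% of all such components. At least 4-fold differences were found in 22 of the 50 (44.0%), toward larvae in 16 and toward eggs in 6, and in 33.2% of all 57962 components. Members are steady by the rule and the 50 rows are not members, so a difference between them is in part set by the choice and nothing is read from it.

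In 25 of the 31 numbers a member was the most abundant row in both stages, and in 4 another row was so in both. By the rule members are at 100 FPKM or more in both stages. The median over all 57962 components was 0 FPKM in eggs and 1.715 FPKM in larvae. The rule thus largely sets this count, and nothing is read from it. A related row reached 1000 FPKM in eggs in 5 numbers. In 2 of these the abundant row was itself nearly equal in the stages, at 4369 FPKM in eggs against 3991 FPKM in larvae and at 6512 FPKM in eggs against 6234 FPKM in larvae. In the other 3 it was lower in larvae than in eggs. The widest gap among them was a row at 2794 FPKM in eggs against 362 FPKM in larvae (-2.94), beside a member at 469 FPKM in eggs against 443 FPKM in larvae (-0.08). In the opposite direction, a row at 0.220 FPKM in eggs against 485 FPKM in larvae (8.64) was beside a member at 265 FPKM in eggs against 344 FPKM in larvae (0.37). These rows were chosen after their values were seen.

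**Figure D5:**
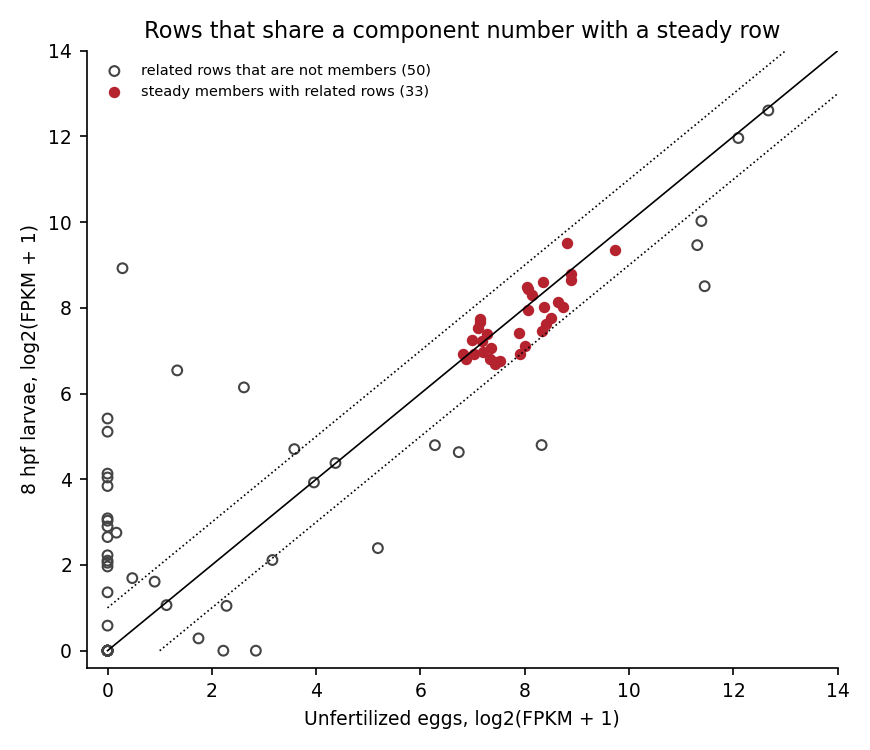
Levels in eggs (horizontal) and larvae (vertical), both as log2(FPKM + 1), of the 33 members that share a component number with other rows (red) and of the 50 related rows that are not members (open circles). Of the open circles, 32 lie on or outside the dotted lines of 2-fold difference and 18 lie between them, 11 of these at 0 in both stages. A further feature is the column of 15 at 0 in eggs and above 0 in larvae, and 5 are at 1000 FPKM or more in eggs.

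In 2 numbers, also chosen after their values were seen, a pair of members occurred together, and as deposited 1 of each pair was higher in larvae and the other in eggs. In comp15105, one member was at 323 FPKM in eggs against 389.6 FPKM in larvae (0.27), and the other was at 398 FPKM in eggs against 280.1 FPKM in larvae (-0.51). Another row of that number, similar to them in eggs at 319 FPKM, was at 26.8 FPKM in larvae (-3.52). In comp22104, one member with 4 transcripts was at 262 FPKM in eggs against 357 FPKM in larvae (0.44), and the other was at 423 FPKM in eggs against 258 FPKM in larvae (-0.71). Whether such rows are alleles, copies or pieces of 1 gene cannot be told from the table, and reads shared between near-identical rows could be split by the authors' assignment, so the levels of these rows are uncertain. After the trimmed mean scaling over components at 1 FPKM or more, all 4 members were higher in larvae, at 1.11 and 0.34 in comp15105 and at 1.29 and 0.13 in comp22104.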

How the data were processed

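The authors' deposited table gives 1 FPKM value per component for unfertilized eggs and for 8 hpf larvae, made with RSEM per the submitters' processing notes. For the RSEM version, the assembler, any filter and a genome build, nothing is stated in these sources. The table's name speaks of log2, but the values are linear: they reach 39446 and are never negative. The thousandths digit is always 0 or 5 (5 in 46.8% of the positive egg values and 49.4% of the larval ones), as a mean of 2 values with 2 decimals would leave. Both columns were therefore taken as means made by the authors, with no SD or n. The table has no read counts, so depth and counting error are unknown.

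The libraries had inserts of 200 bp and reads of 90 bp, per the labels' protocols. Differences are larvae minus eggs in log2(FPKM + 1), with a pseudocount of 1 FPKM. No test was run. The members, classes and comparisons were chosen with earlier results of these data known. By the rule for named components, the 2 members with the largest difference in each direction and the 2 with the smallest are named; all others are given by values or counts. Alternatives changed the scaling, the pseudocount, the fold and level limits and the unit (subcomponents summed). The trimmed mean left out 30% of ratios and 5% of abundances at each end. The code was tested on larval values simulated from the egg column with small noise and planted changes. There the trimmed mean was run over components above 0 only, so the test does not show which scaling suits these data. Values were computed in Python 3.11.15 with pandas 2.3.3, numpy 2.4.6 and scipy 1.17.1, and drawn with matplotlib 3.10.9. No column was left unused (0).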

Additional observations from a re-analysis of the deposited data

How the results depend on the processing

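No paired analysis was possible because the table has a single column for each stage, without replicate numbers, and no replicate could be left out. Both trimmed means, of which the one over all components above 0 was chosen after seeing the data, and the other scalings changed which components were called steady. With the rule applied again, the 99 components became 227 after trimmed mean scaling over components at 1 FPKM or more in both stages, 62 over those above 0 in both, and 1 after upper-quartile scaling, which lowered every larval value 6.44-fold. They became 321 at limits of 50 to 500 FPKM and 42 at 200 to 2000 FPKM. The share higher in larvae was then 44.5% and 22.6% under the trimmed means, and the share with a single transcript was 56.1% at 50 to 500 FPKM and 50% with subcomponents summed. Shares were not computed for the single component left by upper-quartile scaling. With the 99 members kept, the median difference was 0.58 and -0.69 under the trimmed means, -2.90 after upper-quartile scaling, where 0 stayed within 2-fold, and -0.075 after quantile normalization. The other counts were within 1.5 times the 99: pseudocounts of 0.1 and 10 FPKM gave 98 and 101 components, fold limits of 1.5 and 4 gave 66 and 147, quantile normalization gave 115, rescaling to a sum of 1000000 gave 72, and summing subcomponents gave 104. The share with related rows was 33.3% as deposited. Under the settings run for it, which were chosen after seeing the data, it ran from 26.4% to 33.7%. The lowest was after trimmed mean scaling over components at 1 FPKM or more, and the highest was with a pseudocount of 0.1 FPKM. Those settings kept from 31 (200 to 2000 FPKM) to 99 (fold limit 4) of the members. Their shares thus overlap in members and are no independent check. Of 42 alternatives for the 6 named components, 8 changed sign. After upper-quartile scaling comp22201_c0 was at -1.89, comp25293_c2 at -1.97, comp14901_c0 at -2.62 and comp19243_c0 at -2.63. For comp14901_c0 and comp19243_c0, the values were -0.42 and -0.42 under the trimmed mean over components above 0, and -0.12 and -0.12 after rescaling to a sum of 1000000. These 8 sign changes follow from the common factor that each of these scalings puts between the columns.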
